A study of Mus musculus with 6 samples.

Results

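The 51 genes described here make and use glutathione and thioredoxin or carry the NRF2 antioxidant response, and they are 51 of the 12556 genes measured in cultured mouse retinal pigment epithelium (RPE), the pigmented layer behind the photoreceptors. They were chosen by symbol: every measured glutathione S-transferase, microsomal glutathione transferase, glutathione peroxidase, peroxiredoxin, superoxide dismutase and thioredoxin reductase, together with Txn1, Nqo1, Gclc, Gclm, Gss, Gsr, Srxn1, Slc7a11, Cat, G6pdx, Me1, Osgin1, Nfe2l2 and Keap1. No row carries the symbol Txn2, so mitochondrial thioredoxin is not analysed here. POS-challenged cultures received mouse photoreceptor outer segments (POS), the shed light-sensing tips that RPE engulfs, for 1.5 h, at about 10 for each RPE cell, before washing and harvest. Unchallenged cultures, titled Veh in the labels, are described only as unchallenged. Both groups were primary cultures from 10- to 12-day-old pups of the strain C57BL/6J, with the cells of roughly a single eye seeded in each well of a 0.4 µm permeable insert and used after 5 to 6 days. Each group had 3 libraries of poly(A) RNA, labelled as biological replicates. How many animals, litters or culture days lie behind a library is not stated, so the p-values measure only the spread between these libraries.

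Reads summed over the 12556 genes came to 30406411, 30420028 and 24869273 in POS-challenged replicates 1, 2 and 3, against 28808338, 26606536 and 25667464 in unchallenged replicates 1, 2 and 3. POS-challenged replicate 3 stood apart: the 10 most abundant genes took 8.23% of its reads and at least 10.7% in each of the other 5 libraries. Its 15 measured genes of sterol synthesis and uptake summed to 35647 normalized read counts, below every other library (82887 and 83210 in POS-challenged replicates 1 and 2, against 78332 to 91689 in unchallenged libraries). Unchallenged replicates 1 and 3 stood apart in interferon-stimulated genes, whose 16 measured members summed to 3168, 4074 and 12275 in POS-challenged replicates, against 49448, 3936 and 67458 in unchallenged replicates. Of 16 RPE markers 14 were measured (all but Best1 and Slc16a3), with sums of 73588, 67439 and 51907 in POS-challenged libraries and 49253, 64740 and 64047 in unchallenged libraries, including the retinoid isomerase Rpe65 and the engulfment receptor Mertk. Their log2 fold changes, POS-challenged over unchallenged, were positive for 11 and negative for 3 (51.7% of all genes were positive), with a median of 0.19. The medians were -0.025 for Mueller glia markers (6 of 10 measured), 0.061 for melanocyte markers (5 of 6) and -0.091 for endothelium markers (3 of 8). Fibroblast markers (8 of 8 measured) summed to 78993, 79081 and 61164 in POS-challenged libraries and 93928, 69543 and 71815 in unchallenged libraries. Macrophage markers (8 of 12) summed to 2027, 2238 and 1383 in POS-challenged libraries and 1969, 2166 and 1623 in unchallenged libraries. The median log2 fold change of the macrophage markers was -0.25 (5 negative, 3 positive), or -0.029 without POS-challenged replicate 3. Haemoglobin and blood markers (0 of 7) have no row. The part of any of these in the values below was not tested. These are bulk libraries, in which fewer cells of a type and less RNA per cell cannot be told apart.

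Glutathione is a cysteine-containing tripeptide, built from cystine that enters the cell in exchange for glutamate, and it reduces peroxides through glutathione peroxidases and is joined to reactive compounds by glutathione S-transferases. Thioredoxin and its reductase carry electrons from NADPH to peroxiredoxins, which remove hydrogen peroxide. The transcription factor NRF2, the product of Nfe2l2, is held down by KEAP1 and, when released, binds antioxidant response elements as a pair with a small MAF protein. The RPE lies under a high oxygen supply and strong light and takes up membranes rich in polyunsaturated fatty acids, and engulfment of outer segments is itself known to produce hydrogen peroxide.

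The core letters of the antioxidant response element, TGACNNNGC on either strand, were searched in RefSeq promoter windows (build GRCm38.p6) of 250 bases before to 50 after a transcript start. A window was held for 45 of the 51 genes, and 12 of those 45 (26.7%) had a match, against 1658 of the 9791 measured genes with a window (16.9%). Counted by window the match was in 12 of 60 (20.0%) for these genes, against 1781 of 12528 (14.2%) for the measured genes and 4071 of 32851 (12.4%) for all promoters of the reference table. The 12 genes were G6pdx, Gclm, Gsta3, Gstm5, Gstm7, Me1, Mgst1, Nfe2l2, Prdx1, Sod1, Srxn1 and Txnrd1. The 6 matches whose printed stretch lies before a transcript start and outside the gene's annotated exons are shown. They were picked by that position alone, and their genes include the most abundant reductase, peroxiredoxin and dismutase of the set and the NRF2 gene itself. The match of Txnrd1 lies inside that gene (chr10:82833951-82897724), before a later start. Each is printed 5′ to 3′ on the gene's strand, with the 9 matching letters in capitals (a match on the other strand reads GCNNNGTCA).
Gclm, chr3:122245402-122245452, plus strand, 134 bases before a start: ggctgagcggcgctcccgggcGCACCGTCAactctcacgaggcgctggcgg
Gsta3, chr1:21240443-21240493, plus strand, 121 bases before a start: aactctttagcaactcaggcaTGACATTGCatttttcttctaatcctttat
Nfe2l2, chr2:75704874-75704913, minus strand, 240 bases before a start: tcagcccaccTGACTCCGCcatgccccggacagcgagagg
Prdx1, chr4:116685445-116685495, plus strand, 133 bases before a start: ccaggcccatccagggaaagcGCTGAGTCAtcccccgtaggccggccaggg
Sod1, chr16:90220685-90220735, plus strand, 56 bases before a start: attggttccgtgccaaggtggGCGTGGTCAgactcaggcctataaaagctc
Txnrd1, chr10:82859093-82859143, plus strand, 92 bases before a start: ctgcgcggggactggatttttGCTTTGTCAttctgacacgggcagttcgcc

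The Prdx1 match overlaps an AP-1 motif (TGANTCA), as does that of Me1, so that 2 of the 12 matches also hold the letters of the AP-1 site. A match describes these letters only, and no binding was measured.

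Txnrd1, the cytosolic thioredoxin reductase and a selenoprotein, was the most abundant transcript of the set per length. Its level was 21818 ± 1597 normalized read counts per kb of exon in POS-challenged cultures and 21237 ± 986 in unchallenged cultures (SD, n = 3 each), rank 28 of 11827 genes with an exon length. Gsta4, an alpha-class transferase with high activity towards the lipid peroxidation product 4-hydroxynonenal, followed at 17981 ± 1874 counts per kb in POS-challenged cultures and 20768 ± 419.7 in unchallenged cultures (rank 35). In unchallenged cultures Txnrd1 and Gsta4 did not differ from each other beyond their spread, and both stood above the remaining genes by more than the SD of any of them. The next levels were those of Sod1 (7305 ± 1052 POS-challenged, 7841 ± 547 unchallenged) and Gpx8 (7287 ± 1417 POS-challenged, 7790 ± 77.8 unchallenged), which did not differ from each other beyond their spread. Prdx1, Prdx5, Gpx4 and Txn1 followed. The least abundant were Gstm7, Gstm6 and Gsto2, the last at 19.1 ± 4.56 counts per kb in POS-challenged cultures and 16.4 ± 2.87 in unchallenged cultures (rank 10690). Txnrd1 alone held 31.9%, 34.8% and 35.2% of the counts of the whole set in POS-challenged replicates 1, 2 and 3, against 31.0%, 32.9% and 30.0% in the unchallenged ones. All 51 genes together took 0.998%, 0.979% and 0.940% of the counts of the table in POS-challenged libraries and 0.964%, 0.974% and 0.971% in unchallenged libraries. The share of POS-challenged replicate 3 was the lowest of the 6, and those of POS-challenged replicates 1 and 2 were above all unchallenged ones.

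**Figure D1:**
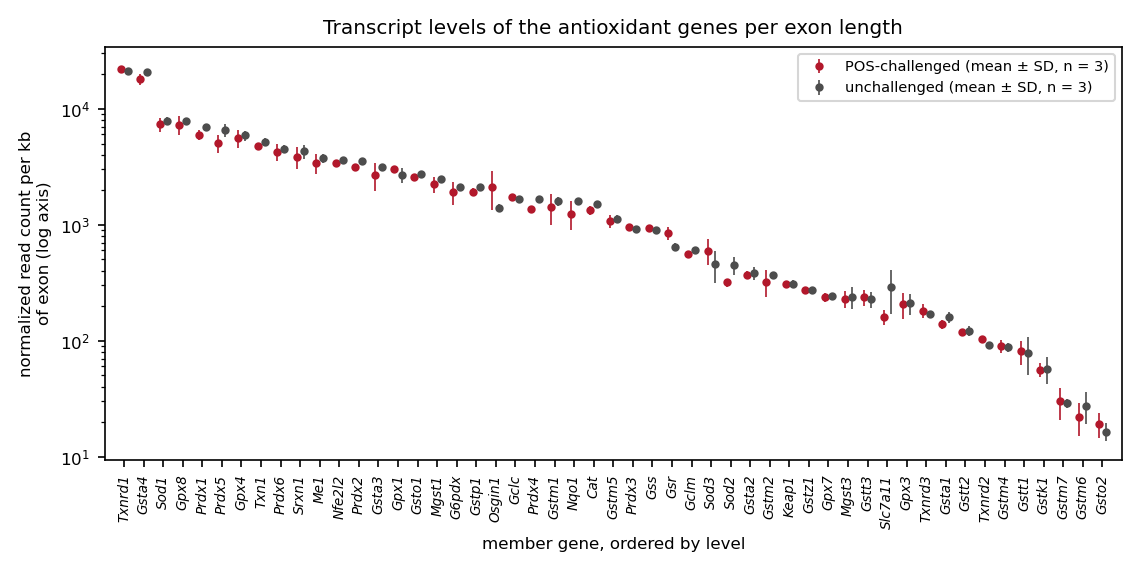
Transcript level of each of the 51 genes as normalized read count per kb of exon (log axis), genes ordered by level, points and bars giving mean ± SD of 3 libraries for POS-challenged (red) and unchallenged (grey) cultures. Levels run from 21818 counts per kb for Txnrd1 in POS-challenged cultures down to 16.4 for Gsto2 in unchallenged cultures, a range against which the differences between the groups are small.

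The plot of levels shows a range of more than 3 decades within the set, much wider than any difference between the groups. That order is by exon length in the GENCODE annotation, which may differ from the transcripts the cells use.

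The comparison of POS-challenged with unchallenged cultures asks whether uptake of outer segments changed these transcripts within 1.5 h. No member passed limma's test at an adjusted p of 0.05, in either direction, while over all 12556 genes 8 were called higher (0.0637%) and 4 lower (0.0319%). At an unadjusted p under 0.05 there was 1 member higher, Gsr (4.87% of all genes), and 6 lower, Sod2, Slc7a11, Prdx1, Prdx2, Prdx4 and Prdx5 (11.8% of members, 6.58% of all genes). In the authors' deposited table, 1 member was called lower, Sod2, and 0 higher, while 1.68% of 12056 genes were called lower and 0.871% higher. The edgeR quasi-likelihood test called 0 members in either direction (all genes 0.0637% higher and 0.0239% lower), and DESeq2 run on the recovered reads called Sod2 lower and none higher (1.86% lower and 0.87% higher over all genes). The standard errors of the log2 fold changes ran from 0.061 to 0.33 with a median of 0.12. For 47 of the 51 genes the 95% interval lay within a log2 fold change of -1 to 1, and for 30 within -0.5 to 0.5.

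Log2 fold changes (POS-challenged over unchallenged, on the log2(value + 1) scale) were negative for 34 of the 51 genes (66.7%), against 48.3% of all genes, and positive for 17 (33.3%), against 51.7%. Their median was -0.088, against 0.007 over all genes tested. The POS-challenged values lay wholly below the unchallenged ones for 10 members (19.6%, against 10.4% of all genes) and wholly above for 2, Gsr and Txnrd2 (3.92%, against 9.56%). Without POS-challenged replicate 3 there were 12 wholly below (19.2% of all genes) and 8 wholly above (17.9%), and without unchallenged replicate 1 there were 14 (14.5%) and 2 (15.4%). A single library carried much of this small shift. POS-challenged replicate 3 was the lowest of the 6 libraries in 30 of the 51 genes (58.8%), against 28.8% of all genes, and without it 24 members were negative and 27 positive, with a median of 0.013. The members' median deviation from the unchallenged mean was 0.046, -0.027 and -0.26 log2 in POS-challenged replicates 1, 2 and 3, against -0.043, 0.011 and 0.026 in the unchallenged replicates.

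**Figure D2:**
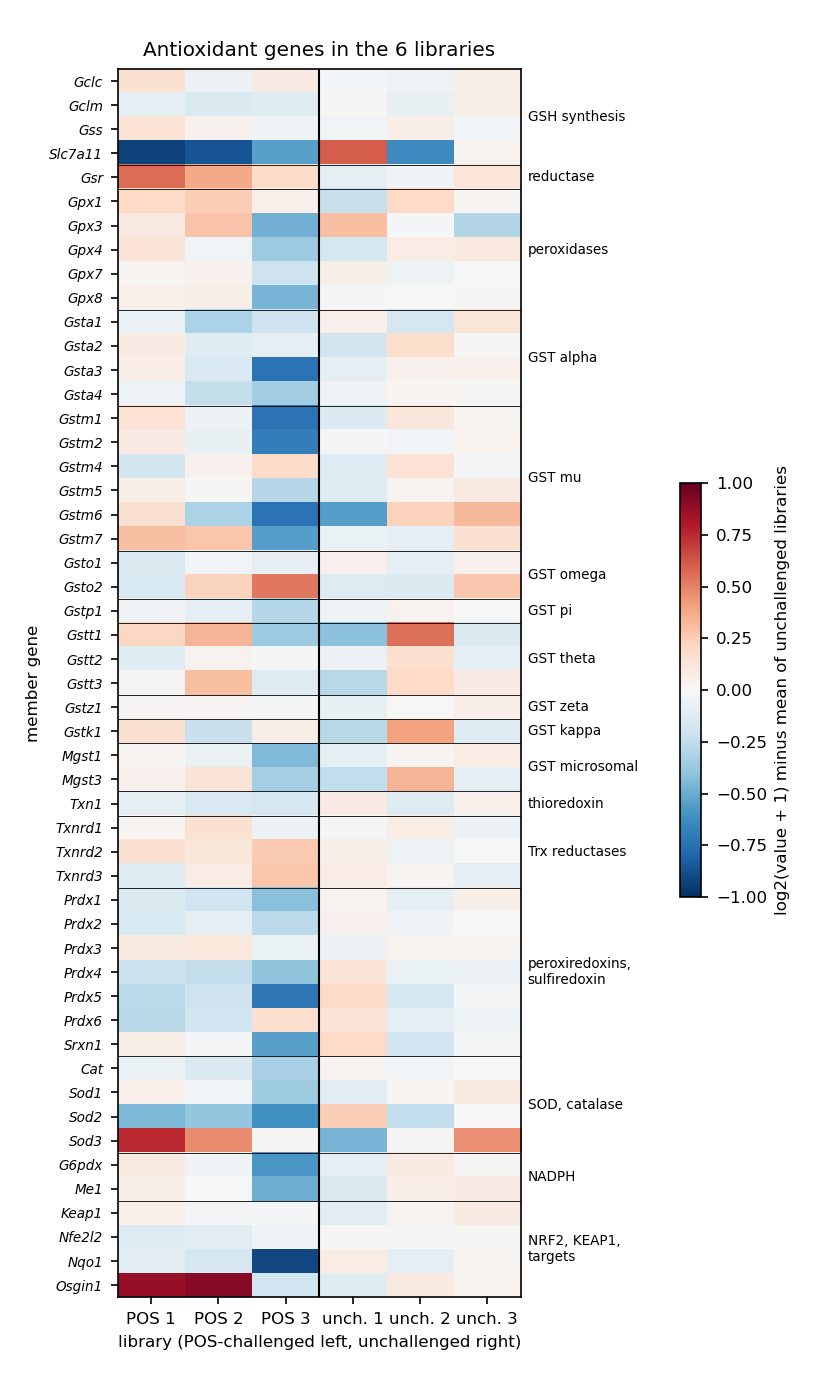
Deviation of each of the 51 genes in each library from its unchallenged mean, in log2(value + 1), as colour (red higher, blue lower, scale from -1 to 1), with POS-challenged libraries left of the line and unchallenged libraries right of it, genes grouped by role. The column of POS-challenged replicate 3 is the bluest, with 41 of 51 genes below the unchallenged mean.

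In the heat map of deviations, 20, 30 and 41 genes lay below the unchallenged mean in POS-challenged replicates 1, 2 and 3. Replicate 3 was the lowest library in 10 of 20 transferases, 4 of 5 peroxidases, 5 of 6 peroxiredoxins and both NADPH enzymes. It was the highest in 5 genes, Prdx6, Txnrd2, Txnrd3, Gstm4 and Gsto2, or 9.8% of members, against 31% of all genes.

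**Figure D3:**
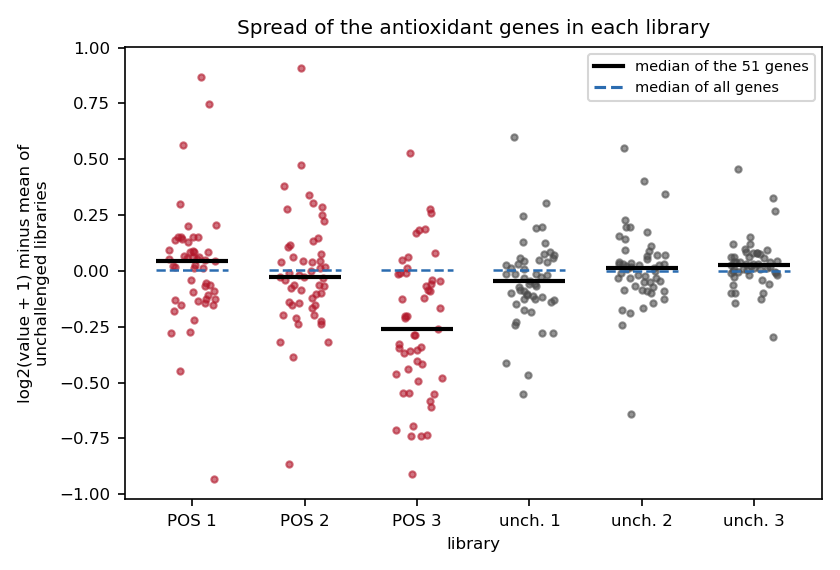
Deviation of the 51 genes from their unchallenged mean in each library, in log2(value + 1): points are genes, black lines the members' medians and dashed blue lines the medians of all genes. The black line stands at -0.26 in POS-challenged replicate 3 and between -0.043 and 0.046 in the other 5 libraries, while the medians of all genes lie near 0 in all 6.

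In the plot by library, the members' median and highest deviation were lower in POS-challenged replicate 3 than in POS-challenged replicates 1 and 2. The highest was 0.53 in replicate 3, against 0.87 and 0.91 in replicates 1 and 2. The lowest was -0.91, against -0.93 and -0.86. Over all genes the median of POS-challenged replicate 3 was 0.003. The 12 members with an antioxidant response element match had a median log2 fold change of -0.13 (10 of 12 negative), those with a window and no match -0.054 (21 of 33 negative), and all genes with a match -0.002. Without POS-challenged replicate 3 the 12 stood at a median of 0.019, with 5 negative.

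Superoxide dismutases turn superoxide into hydrogen peroxide, and catalase removes it. Sod2, the mitochondrial manganese enzyme (chr17:13007839-13018119), had 1898, 1987 and 1697 normalized read counts in POS-challenged replicates 1, 2 and 3, against 3075, 2189 and 2589 in unchallenged replicates 1, 2 and 3. The groups did not overlap, though the lowest unchallenged value, of replicate 2, lay close to the highest POS-challenged one. Means were 1861 ± 148 in POS-challenged cultures and 2618 ± 444 in unchallenged cultures (SD, n = 3 each), a log2 fold change of -0.48 (SE 0.13, 95% interval -0.78 to -0.18) with a limma adjusted p of 0.283. Sod2 fell in the authors' deposited table, with an adjusted p of 0.0365, and in the DESeq2 rerun, with an adjusted p of 0.036. Its log2 fold change was -0.36 without unchallenged replicate 1 and -0.24 without both unchallenged replicates 1 and 3. Here and below, the fit without both compares the POS-challenged libraries with unchallenged replicate 2 alone. Unchallenged replicates 1 and 3 had high interferon-stimulated genes and high Sod2. POS-challenged replicate 3, with the highest interferon-stimulated sum of its group (12275), had the lowest Sod2. A link between Sod2 and these genes was not tested. The values of Sod3, the secreted enzyme, were 2756, 2281 and 1659.9 in POS-challenged cultures and 1189, 1656 and 2253 in unchallenged cultures, with wide overlap and an adjusted p of 0.562. For Sod1, the abundant cytosolic copper-zinc enzyme, they were 5202, 4925 and 3920.5 in POS-challenged cultures and 4653, 5075 and 5349 in unchallenged cultures, with a log2 fold change of -0.11 (adjusted p = 0.734). Only in replicate 3 did the POS-challenged values of Sod1 lie below all unchallenged ones, and without it the log2 fold change was 0.013. Cat, catalase, stood lower in each POS-challenged library, at 3755, 3558 and 3131, against 3999, 3847 and 3937 unchallenged, by a log2 fold change of -0.18 (adjusted p = 0.458), or -0.10 without POS-challenged replicate 3. Sod1 shares 31.8% of its 36-base stretches with the pseudogene Gm8566, so its reads may be split.

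Gsr, glutathione reductase, which returns oxidized glutathione to its reduced form with NADPH, was the member with an unadjusted p under 0.05 and higher counts in POS-challenged cultures. Its counts were 2549, 2247 and 1957 in POS-challenged replicates 1, 2 and 3, against 1623, 1688 and 1878 in the unchallenged replicates (chr8:33653238-33698162). The groups did not overlap, and the gap was smallest between POS-challenged replicate 3 and unchallenged replicate 3. Means were 2251 ± 296 in POS-challenged cultures and 1729.7 ± 133 in unchallenged cultures, a log2 fold change of 0.37 (SE 0.11, 95% interval 0.12 to 0.63), with a limma adjusted p of 0.317 and 0.092 in the authors' deposited table. This difference did not pass either test. Over the fits that each left out 1 library its log2 fold change ran from 0.28 to 0.47.

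Glutathione synthesis starts at glutamate-cysteine ligase, whose catalytic subunit is Gclc and whose modifier subunit is Gclm, and ends at glutathione synthetase, Gss. The counts of Gclc were 6258, 5402 and 5964 in POS-challenged cultures, against 5572, 5458 and 5897 in unchallenged cultures, in full overlap (log2 fold change 0.056, 95% interval -0.12 to 0.24). Gclm had 3178, 3063 and 3108 in POS-challenged cultures and 3407, 3210.4 and 3522 in unchallenged cultures. All POS-challenged values of Gclm were below all unchallenged ones, by a log2 fold change of -0.12 (adjusted p = 0.511), which was -0.11 without POS-challenged replicate 3 and -0.043 without both unchallenged replicates 1 and 3. Gss had 1936, 1816 and 1711 in POS-challenged cultures and 1726, 1827 and 1725 in unchallenged cultures and overlapped. Slc7a11, the cystine-glutamate exchanger that brings in cystine, had the most negative log2 fold change of the set, -0.78 (SE 0.29, 95% interval -1.45 to -0.11). Its counts were 1411, 1478 and 1843 in POS-challenged replicates 1, 2 and 3, against 4081, 1726 and 2760.1 in unchallenged replicates 1, 2 and 3. The POS-challenged values are close together, and the unchallenged ones are spread, with replicate 2 inside the POS-challenged range and replicate 1 far above it. The adjusted p was 0.389 by limma and 0.0541 in the authors' deposited table, so that Slc7a11 passed neither. Without unchallenged replicate 1 its log2 fold change was -0.48, and without both unchallenged replicates 1 and 3 it was -0.14.

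Thioredoxin reductases use NADPH to reduce thioredoxin. Txnrd1 had 87825, 95858 and 82979 counts in POS-challenged cultures, against 85638, 90906 and 83020.4 in unchallenged cultures. The groups overlapped fully, and the log2 fold change of 0.037 had a 95% interval of -0.24 to 0.31. Its sign was negative without POS-challenged replicate 2 (-0.018) and without both unchallenged replicates 1 and 3 (-0.035). Mitochondrial Txnrd2 was at 352, 343 and 379 in POS-challenged cultures and 329.6, 306 and 315 in unchallenged cultures. Each POS-challenged value of Txnrd2 was above every unchallenged one, by a log2 fold change of 0.18 (adjusted p = 0.505). Txnrd3, a form with a glutaredoxin domain, had 444, 511 and 587 in POS-challenged cultures and 509.8, 493 and 453 in unchallenged cultures, in overlap. Txn1, cytosolic thioredoxin, had 5117, 4907 and 4855 in POS-challenged cultures and 5786, 4998 and 5613 in unchallenged cultures, with overlap between POS-challenged replicate 1 and unchallenged replicate 2 (log2 fold change -0.14, adjusted p = 0.516). That of Txn1 was -0.012 without both unchallenged replicates 1 and 3.

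Peroxiredoxins mostly had lower counts in POS-challenged cultures. Of 6 members, 5 had a negative log2 fold change and in 4 (Prdx1, Prdx2, Prdx4 and Prdx5) every POS-challenged library was below every unchallenged one, as in 10.4% of all genes. The median over the 6 was -0.21, and none passed the adjusted test. Without POS-challenged replicate 3 there were still 5 negative, with a median of -0.20, and without both unchallenged replicates 1 and 3 the median was -0.15. Prdx1, the abundant cytosolic form, had 16195, 15514 and 13325 counts in POS-challenged replicates 1, 2 and 3, against 18172, 16712 and 18463 in the unchallenged replicates. Its means were 15011 ± 1500.0 in POS-challenged cultures and 17782 ± 938 in unchallenged cultures (log2 fold change -0.25, SE 0.096, adjusted p = 0.408). The log2 fold change of Prdx1 was -0.16 without POS-challenged replicate 3 and -0.16 without both unchallenged replicates 1 and 3. Prdx4, the form of the endoplasmic reticulum, had 1402, 1382 and 1235 in POS-challenged cultures and 1781, 1559 and 1564 in unchallenged cultures. That is a log2 fold change of -0.29 (SE 0.086, 95% interval -0.49 to -0.084, adjusted p = 0.328), which ran from -0.32 to -0.22 as each library was left out. Prdx4, like Prdx3, shares no 36-base stretch with another gene and overlaps none, so its counts are not open to reads split in that way. Prdx2, a second cytosolic form, had 5929.9, 6162 and 5513 in POS-challenged cultures and 6780.1, 6444 and 6566 in unchallenged cultures (log2 fold change -0.17, adjusted p = 0.414). Its exons overlap those of Junb on the other strand, a gene whose own log2 fold change was -0.71, and whether reads were counted by strand is not stated in the labels or headers. Prdx5, found in mitochondria, peroxisomes and cytosol, had 7835, 8177 and 5775 in POS-challenged cultures and 10817, 8383 and 9335 in unchallenged cultures (log2 fold change -0.40, adjusted p = 0.404), and shares 25.4% of its stretches with the antisense gene Trmt112. For Prdx5 the log2 fold change was -0.24 without POS-challenged replicate 3 and -0.22 without both unchallenged replicates 1 and 3. Mitochondrial Prdx3 had 1445, 1458 and 1292 in POS-challenged cultures and 1300.5, 1384 and 1379 in unchallenged cultures, with a log2 fold change of 0.044. Prdx6, the form that also acts on phospholipids, had 9283, 9821 and 12672 in POS-challenged cultures and 12344, 10597 and 10938 in unchallenged cultures. In Prdx6, unlike the other 5 peroxiredoxins, POS-challenged replicate 3 was the highest library. Srxn1, sulfiredoxin, which repairs overoxidized peroxiredoxins and is a well-known NRF2 target, had 12502, 11887 and 8202 in POS-challenged cultures and 13745, 10497 and 11910.1 in unchallenged cultures (log2 fold change -0.17, adjusted p = 0.738). Its log2 fold change was 0.025 without POS-challenged replicate 3 and 0.025 without both unchallenged replicates 1 and 3.

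**Figure D4:**
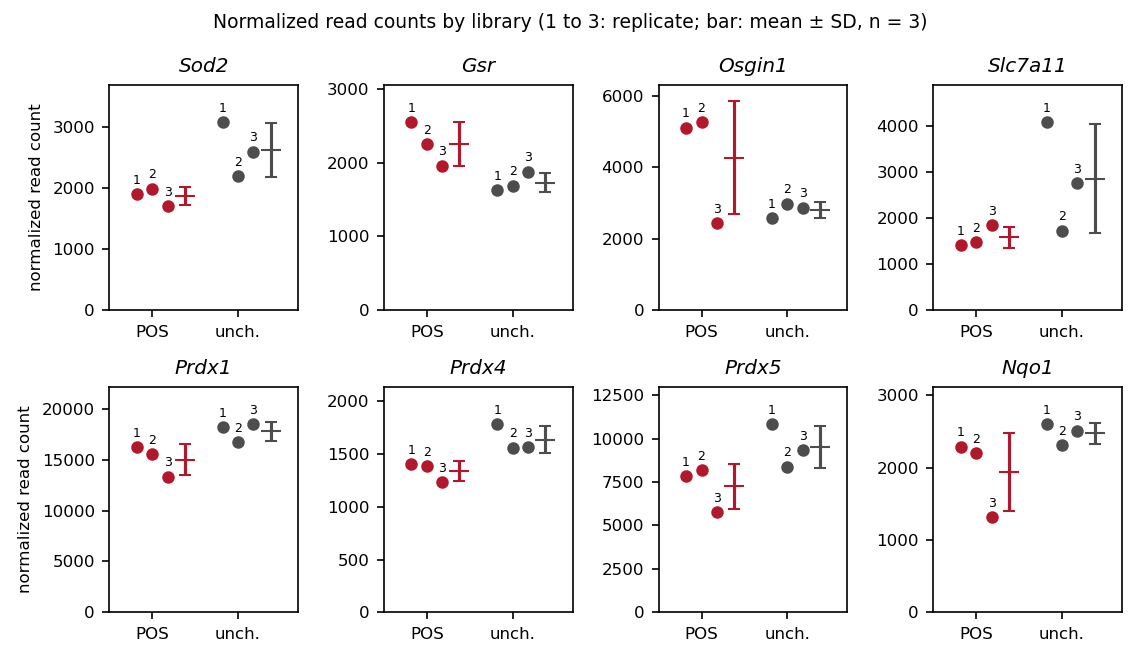
Normalized read counts of 8 members in each library (points numbered by replicate; crosses with bars, mean ± SD, n = 3), POS-challenged in red on the left and unchallenged in grey on the right of each panel, with axes from 0. Sod2, Prdx1, Prdx4, Prdx5 and Nqo1 show no overlap with POS-challenged below, Gsr no overlap with POS-challenged above, Slc7a11 overlap through unchallenged replicate 2, and Osgin1 overlap through POS-challenged replicate 3.

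In the panels of single genes, the spread lies within the POS-challenged group for Osgin1 and Nqo1 and within the unchallenged group for Slc7a11.

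The transcript of NRF2 itself did not pass the test. Nfe2l2 had 8195, 8360.0 and 8689 counts in POS-challenged replicates 1, 2 and 3, against 9028, 8852 and 9044 in the unchallenged replicates. All POS-challenged values were lower, by a log2 fold change of -0.093 (SE 0.061, 95% interval -0.24 to 0.051, adjusted p = 0.577). Keap1 had 1437, 1369 and 1378 in POS-challenged cultures and 1286, 1416 and 1469 in unchallenged cultures, with a log2 fold change of 0.0065. Nqo1, the quinone reductase commonly read as an NRF2 target, had 2290.2, 2197 and 1315 in POS-challenged cultures and 2597, 2306 and 2509 in unchallenged cultures. The POS-challenged values were all below the unchallenged ones, replicate 3 by far the most, and the log2 fold change was -0.39 (adjusted p = 0.499) with all libraries and -0.14 without that replicate. Osgin1, a growth inhibitor induced by oxidative stress and oxidized lipids, had 5111, 5264 and 2437 in POS-challenged replicates 1, 2 and 3, against 2568, 2985 and 2864 in the unchallenged replicates. POS-challenged replicates 1 and 2 were well above all unchallenged libraries and replicate 3 was below them all. With all libraries the log2 fold change was 0.53 (SE 0.28, 95% interval -0.13 to 1.18) with an adjusted p of 0.509 by limma and 0.243 in the authors' deposited table. Without POS-challenged replicate 3, the library with its lowest value, it was 0.89, with an adjusted limma p of 0.0366 and 1 member called. That fit called 10 of the 12556 genes higher and 3 lower. Osgin1 was the only member that limma called under any of the settings tried. Its adjusted p ran from 0.0366 to 0.752 over the fits that left out a library.

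**Figure D5:**
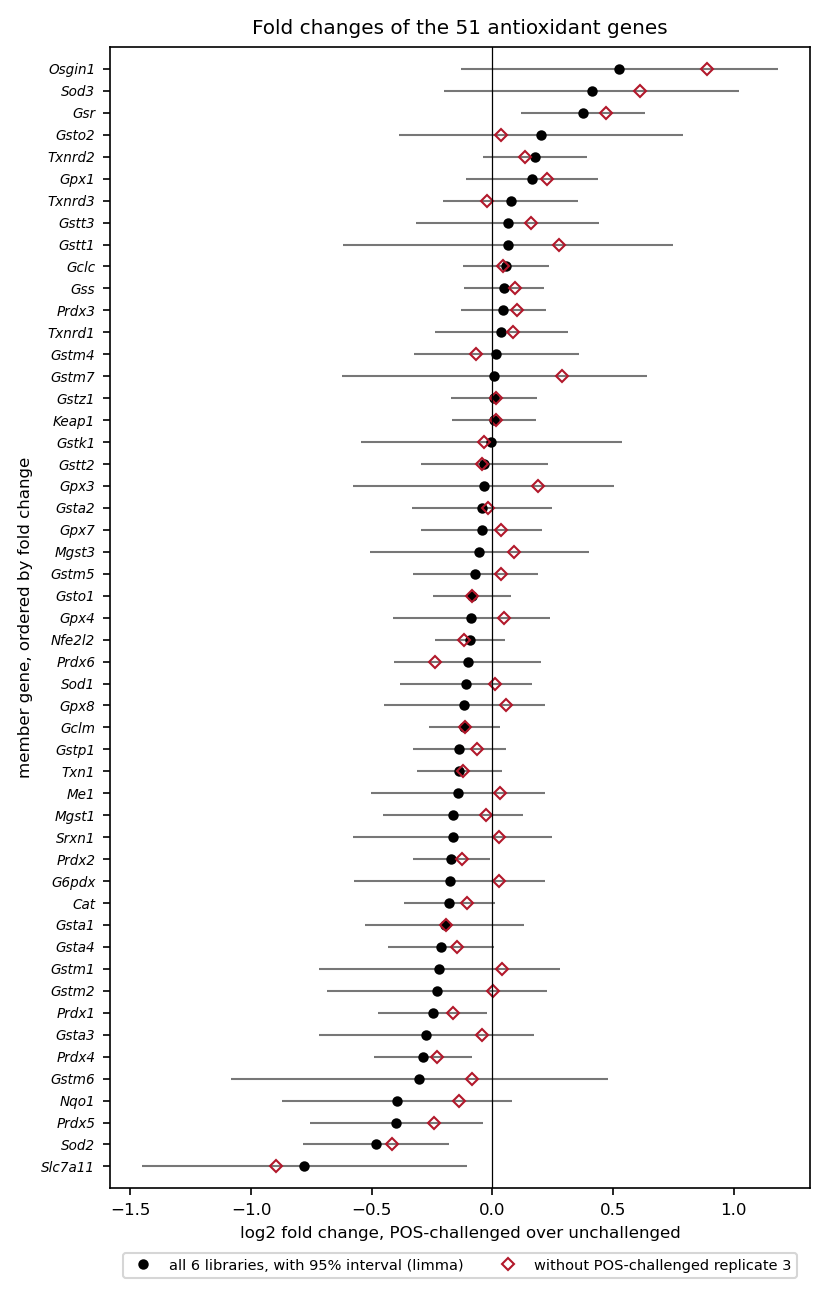
Log2 fold change of each of the 51 genes, POS-challenged over unchallenged, on the log2(value + 1) scale: black points with 95% intervals for all 6 libraries and open red diamonds for the fit without POS-challenged replicate 3, genes ordered by fold change. The values run from -0.78 (Slc7a11) to 0.53 (Osgin1), 7 intervals leave out 0 without adjustment, and many diamonds lie to the right of their points.

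In the plot of fold changes the diamonds lay furthest to the right of their points for Osgin1, Gstm7, Gstm1 and Nqo1, and POS-challenged replicate 3 was the lowest library in each of these genes.

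Glutathione peroxidases reduce peroxides, several of them with glutathione. Of the 5 measured, 4 had a negative log2 fold change with all libraries and 0 without POS-challenged replicate 3. Gpx8, a peroxidase of the endoplasmic reticulum and the most abundant of the family, had 8476, 8512 and 5922 counts in POS-challenged cultures and 8089, 8152 and 8250.3 in unchallenged cultures. Gpx4, which reduces lipid hydroperoxides in membranes and guards against ferroptosis, had 8138, 7289 and 5776 in POS-challenged cultures and 6599.9, 7826 and 7974 in unchallenged cultures, and shares 54.2% of its stretches with a pseudogene. In both genes POS-challenged replicate 3 was the lowest library and the other POS-challenged values overlapped or exceeded the unchallenged ones. Gpx1, the main cytosolic form, had 3279, 3392 and 2949.9 in POS-challenged cultures and 2437, 3274 and 2915 in unchallenged cultures (log2 fold change 0.17, adjusted p = 0.604, but -0.032 without both unchallenged replicates 1 and 3). Gpx3 and Gpx7, at means of 328 and 305 in POS-challenged cultures against 333 and 314 in unchallenged cultures, had log2 fold changes of -0.036 and -0.045.

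Of the 20 glutathione S-transferases, microsomal forms included, 14 had a negative and 6 a positive log2 fold change, with a median of -0.063, a range of -0.30 to 0.20 and adjusted p-values from 0.447 to 0.997. The median was -0.021 without POS-challenged replicate 3 and -0.19 without both unchallenged replicates 1 and 3. Gsta4 was at 19556, 17197 and 15951 counts in POS-challenged cultures, against 19824, 20596 and 20452 in unchallenged cultures. Among the transferases Gsta4 alone had groups that did not overlap, with a log2 fold change of -0.21 (SE 0.093, adjusted p = 0.447) and -0.15 without POS-challenged replicate 3. All 4 alpha-class genes were negative. Gsta3, at 5102, 4387 and 2925 in POS-challenged cultures and 4590.4, 5009.9 and 5031 in unchallenged cultures, was lowest in POS-challenged replicate 3, and replicate 1 lay above all unchallenged libraries. Gsta1 and Gsta2 share 91.5% and 55.8% of their stretches with other genes, so their counts are uncertain. The mu class showed the same dependence on that library: POS-challenged replicate 3 was lowest in 5 of 6 genes, and 4 of 6 were negative with it and 2 without it. Gstm1, its most abundant member, had 2397, 2082 and 1303 in POS-challenged cultures and 1972, 2345 and 2221 in unchallenged cultures, a log2 fold change of -0.22, or 0.04 without that replicate. Mgst1, the main microsomal form, had 4607, 4344 and 3360.1 in POS-challenged cultures and 4243, 4633 and 4799 in unchallenged cultures (log2 fold change -0.16, or -0.025 without POS-challenged replicate 3). Gstp1 had 1681, 1626 and 1416 in POS-challenged cultures and 1676, 1769.7 and 1736 in unchallenged cultures (log2 fold change -0.14, or -0.063 without POS-challenged replicate 3), and shares 55.9% of its stretches with Gstp2. The lowest and highest fold changes among the 20 transferases were those of the 2 with the lowest counts. Gstm6, at means of 27.1 in POS-challenged and 33.8 in unchallenged cultures, had a log2 fold change of -0.30 (SE 0.33), and Gsto2, at 33.3 in POS-challenged and 28.6 in unchallenged cultures, one of 0.20 (SE 0.25). They were -0.085 for Gstm6 and 0.036 for Gsto2 without POS-challenged replicate 3, and -0.53 and 0.34 without both unchallenged replicates 1 and 3. The most abundant genes of the omega, theta, zeta and kappa classes lay near 0 with all 6 libraries. Gsto1 had 2932, 3182 and 3056 in POS-challenged cultures and 3343, 3047 and 3333 in unchallenged cultures, with a log2 fold change of -0.084, or 0.0036 without both unchallenged replicates 1 and 3. Gstt3 had 428, 523 and 388 in POS-challenged cultures and 349.5, 486 and 448 in unchallenged cultures (log2 fold change 0.064, or 0.16 without POS-challenged replicate 3 and -0.13 without both unchallenged replicates 1 and 3). Gstz1, which also acts in tyrosine breakdown, had 593, 595 and 585 in POS-challenged cultures and 559.6, 591 and 615 in unchallenged cultures, an even level in all 6 libraries. Gstk1, a mitochondrial and peroxisomal form, had 58.0, 44.4 and 54.4 in POS-challenged cultures and 42.8, 69.2 and 47.7 in unchallenged cultures (log2 fold change -0.0039, or -0.41 without both unchallenged replicates 1 and 3).

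The reductases of both systems depend on NADPH. G6pdx, which opens the pentose phosphate pathway, had 5968, 5455 and 3739 counts in POS-challenged cultures and 5236, 5958 and 5642 in unchallenged cultures. Me1, the cytosolic malic enzyme, had 13959, 13367 and 9517 in POS-challenged cultures and 12080.5, 13995 and 14147 in unchallenged cultures. In both, POS-challenged replicate 3 was the only library set apart, and their log2 fold changes of -0.18 and -0.14 became 0.026 and 0.031 without it. Among 14 other genes of NADPH supply 7 were negative and 7 positive and 0 were called by limma or in the authors' deposited table. The 2 with the smallest p went opposite ways, each without overlap. Mthfd1 was higher, at 1499, 1526 and 1493 in POS-challenged cultures and 1185, 1399 and 1220 in unchallenged cultures. Its log2 fold change was 0.25 (adjusted p = 0.354), and 0.11 without both unchallenged replicates 1 and 3. Pgd, the next NADPH-making step of the pentose phosphate pathway, was lower. It had 11057, 10710.3 and 9477 in POS-challenged cultures and 14151, 11365 and 13014 in unchallenged cultures. The log2 fold change of Pgd was -0.30 (adjusted p = 0.376), and -0.13 without both unchallenged replicates 1 and 3.

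Among the partners and rivals of NRF2 some fold changes were larger than that of Nfe2l2. Of 9 genes listed as NRF2 regulators outside the set, 0 were called by limma and 7 had a negative log2 fold change (48.3% of all genes did). The authors' deposited table called 3 of the 9 lower (1.68% of all genes it tested). Hmox1, an NRF2 target rather than a partner or rival, is among the 7 and is counted again among the targets below. Mafk, a small MAF protein that pairs with NRF2 or with BACH1, had 1489, 1670.2 and 1593 counts in POS-challenged replicates 1, 2 and 3, against 2317, 2307 and 2143 in the unchallenged replicates. The groups were far apart, with a log2 fold change of -0.51 (SE 0.072, adjusted limma p = 0.107), and an adjusted p of 1.19e-05 in the authors' deposited table. Maff, another small MAF protein, had 5371, 5353 and 4003 in POS-challenged cultures and 7505, 6789 and 6817 in unchallenged cultures, a log2 fold change of -0.53 (adjusted limma p = 0.242, and 0.0132 in the authors' deposited table). Bach1, which competes with NRF2 for the same elements as a repressor, had 2089.7, 2312 and 2145 in POS-challenged cultures and 2649.7, 2806 and 2756 in unchallenged cultures, a log2 fold change of -0.33 (adjusted limma p = 0.228, and 0.0101 in the authors' deposited table). The groups did not overlap in any of these 3, and without POS-challenged replicate 3 the log2 fold changes of Mafk, Maff and Bach1 were -0.52, -0.39 and -0.32. Without both unchallenged replicates 1 and 3 they were -0.54, -0.48 and -0.36. The third small MAF gene, Mafg, had a log2 fold change of -0.063.

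Of 23 other NRF2 targets, 21 had a negative log2 fold change (against 48.3% of all genes), with a median of -0.14, and in 15 of the 23 POS-challenged replicate 3 was the lowest library. Without that library 14 were negative, with a median of -0.077. Limma called 0 of them and the authors' deposited table called 1 lower (1.68% of all genes it tested). That gene was Tiparp, an ADP-ribosyltransferase that is also a target of the aryl hydrocarbon receptor. Tiparp had 2169, 2322 and 2936 in POS-challenged cultures and 3849, 3149 and 3400.2 in unchallenged cultures (log2 fold change -0.49, adjusted p = 0.0402 in the authors' deposited table). Hmox1, heme oxygenase 1, which belongs to both lists, averaged 64151 ± 1011 counts in POS-challenged cultures and 70512 ± 875 in unchallenged cultures (SD, n = 3 each). All POS-challenged values of Hmox1 lay below all unchallenged ones. Its log2 fold change was -0.14 (SE 0.096), with an adjusted limma p of 0.602, and was -0.15 without POS-challenged replicate 3. Ptgr1, a reductase of lipid enals, had 10711, 9746 and 10209 in POS-challenged cultures and 11567, 11809 and 11831 in unchallenged cultures (log2 fold change -0.20, adjusted p = 0.362).

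Among 17 glutaredoxins and other thiol oxidoreductases, limma called 0 and the authors' deposited table called 1 lower (1.68% of all genes it tested). That gene, Glrx, glutaredoxin 1, which reduces disulfides formed between proteins and glutathione, had 495, 642 and 314 in POS-challenged cultures, against 1519.5, 713 and 1009.5 in unchallenged cultures. Its unchallenged replicate 1 was the highest library and POS-challenged replicate 3 the lowest, and the log2 fold change was -1.15 (SE 0.33, adjusted limma p = 0.31, and 0.0126 in the authors' deposited table). It was -0.87 without POS-challenged replicate 3 and -0.62 without both unchallenged replicates 1 and 3. Ero1l, the oxidase that feeds disulfides to the endoplasmic reticulum, had 14060.1, 14684 and 17052 in POS-challenged cultures and 32256, 16320.3 and 24791 in unchallenged cultures. As for Slc7a11, the unchallenged values of Ero1l were ordered replicate 1, 3 and 2, and replicate 2 lay inside the POS-challenged range. Superoxide and peroxide sources had 12 of 14 negative (against 48.3% of all genes), with a median of -0.20 (-0.15 without POS-challenged replicate 3) and 0 called by limma or in the authors' deposited table. Cyba, the p22phox subunit of the NADPH oxidases, had 1662, 1702 and 1611 in POS-challenged cultures and 1971, 1821 and 1832 in unchallenged cultures (log2 fold change -0.18, adjusted p = 0.389), without overlap. Glutathione precursors and turnover (16 genes, 9 negative, median -0.034), methionine sulfoxide reductases, sestrins and other repair (16 genes, 10 negative, or 4 without POS-challenged replicate 3, median -0.053) and selenoprotein synthesis (16 genes, 7 negative, median 0.018) had 0 calls by limma and 0 in the authors' deposited table.

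Genes can share reads through like sequence, wherever they lie, or through overlapping exons. Of the members, 17 share over 10% of their 36-base stretches with another gene and 10 overlap the exons of another gene. The 32 members with neither had a median log2 fold change of -0.049, with 20 of 32 negative, against -0.14 and 14 of 19 for the rest. Carried-in RNA is a second limit. Sag and Cdhr1, the 2 photoreceptor markers of 18 with a row, summed to 1402, 1538 and 926 in POS-challenged cultures and 153, 109 and 116 in unchallenged cultures, and both were called higher by limma. RNA of the 51 genes brought in by the meal and their RNA in the RPE cannot be told apart in these libraries.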

How the data were processed

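Poly(A) RNA of primary mouse RPE cultures was sequenced in 6 libraries, 3 POS-challenged and 3 unchallenged, each run on 2 lanes, per the labels' protocols. GSNAP, DESeq2 and the build mm10 are named, per the submitters' processing notes, without versions. Counting tool, gene annotation and use of strand are not stated in the labels or the file header.

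The deposited table gives 12556 genes as a normalized read count per library, a signal that the authors scaled by library. Per its values each is a whole number of reads divided by a library size factor: 100% of the values of each library came out whole within 0.001. The authors' log2 fold change, its error, the raw and adjusted p-value and a score for each gene (headed only stat) are also deposited, per the file headers. Summed over the 6 libraries no gene has under 87 reads and no member under 182, so less abundant genes of these families were not analysed here.

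Because the values are scaled, the test was limma 3.58.1 in R 4.3.3, fitted to log2(value + 1) with a mean-variance trend and group as the only term, a mean of at least 10 (which removed 0 genes) and Benjamini-Hochberg adjustment over all 12556 genes, with calls at 0.05. Residual degrees of freedom were 4, with a prior of 3.22. An effect size is given with its limma standard error and 95% interval. Alternatives were quantile normalization, pseudocounts 0.1 and 5, no minimum mean or 100, a block for replicate number, fits that leave out each library or both unchallenged replicates 1 and 3, the authors' table, and 2 count models on the reads recovered, edgeR 4.0.16 and DESeq2 1.42.0. Leaving out both unchallenged replicates 1 and 3 leaves unchallenged replicate 2 alone in its group, without a spread of its own. Replicates of a group differed by more than sampling noise in each pair (chi-square over its degrees of freedom 8.58 to 61.8). The fits were tested on simulated data.

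Members were matched to RefSeq genes by Entrez Gene identifier (51 of 51), which gave coordinates in GRCm38.p6, the assembly that mm10 denotes. Levels between genes were divided by exon length from GENCODE vM21 (51 members, 11827 genes), which may not be the authors' annotation. Shared sequence was counted as 36-base stretches also present in another gene's transcripts.

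The members and the 18 gene lists (8 of pathways, 8 of cell types and 2 of cell states) were chosen with earlier results of these data known. Values in every library were given for the most abundant member of each family, members called by any tool or with an unadjusted p under 0.05, the 5 largest and 5 smallest log2 fold changes at a mean of at least 50, and Nfe2l2, Keap1, Nqo1, Gclc, Gclm, Srxn1, Txnrd1, Slc7a11 and Osgin1. From each pathway list, genes called by limma or in the authors' table and the 2 with the smallest p could be named. Cat, Gss, Txnrd3, Prdx3, Prdx6, Gpx4, Gsta3, G6pdx, Junb, Mafg and Hmox1 were named outside that rule, after their values were seen.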

Additional observations from a re-analysis of the deposited data

How the results depend on the processing

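Over all genes the fit called 8 higher and 4 lower. With one library left out at a time it called 1 to 12 higher (12 without unchallenged replicate 2) and 0 to 108 lower (108 without unchallenged replicate 2, 3 without POS-challenged replicate 3, 0 without any of the other 4). The fit without both unchallenged replicates 1 and 3 rests on unchallenged replicate 2 alone in that group, so only its log2 fold changes are given. DESeq2 called 105 and 224, and the authors' deposited table holds 105 and 203. Members called higher were 0, or 0 to 1 with one library left out, the 1 being Osgin1 (0.89) without POS-challenged replicate 3. The same fit called 10 of the 12556 genes higher. Members called lower were 0, but 1 with DESeq2 and 1 in the authors' deposited table, both Sod2 (-0.49 and -0.42). Members with a negative log2 fold change were 34 of 51, or 24 to 39 with one library left out, and 20 of the 32 genes without shared sequence or exon overlap, a subset chosen after seeing the data. Their median ran from -0.13 (without POS-challenged replicate 1) to 0.013 (without POS-challenged replicate 3) and was -0.056 after quantile normalization. Of 479 alternative values for the 30 members named by the rule, 455 kept their sign and side of the threshold and 21 changed sign. Without POS-challenged replicate 3 these were Gpx8, Gstm1, Me1, Sod1 and Srxn1. Without both unchallenged replicates 1 and 3 they were Gpx1 (-0.032), Gsto1 (0.0036), Srxn1 (0.025), Gstt3 (-0.13), Gstz1 (-0.00023), Keap1 (-0.022) and Txnrd1 (-0.035). The others were Gstk1 (0.043) by quantile normalization, and Gstk1 without POS-challenged replicate 2 or unchallenged replicate 2, Gstt3 without POS-challenged replicate 2 or unchallenged replicate 1, Gstz1 without unchallenged replicate 1, Keap1 without POS-challenged replicate 1 or unchallenged replicate 1, and Txnrd1 without POS-challenged replicate 2. Over the fits that each left out one library, these genes ran from -0.20 to 0.057 (Gpx8), -0.14 to 0.20 (Gstk1), -0.40 to 0.040 (Gstm1), -0.075 to 0.16 (Gstt3), -0.028 to 0.039 (Gstz1), -0.049 to 0.047 (Keap1), -0.25 to 0.031 (Me1), -0.19 to 0.013 (Sod1), -0.28 to 0.025 (Srxn1) and -0.018 to 0.086 (Txnrd1). The cause of these changes was not tested.

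Samples share only a replicate number: deviations of same-numbered libraries correlated at -0.35, 0.17 and 0.17 and not every library correlated best with its own number. With the number as a replicate block 1 gene was called higher and 0 lower, with 0 members in either direction. With 3 libraries a group, the median standard error of 0.12 log2 sets the size of difference that could be seen, and differences in genes such as Gstm6 (SE 0.33) were not detectable unless large.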
